A study of Mus musculus with 2 samples.

Results

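Interferon gamma and the genes that pass on and limit its signal were followed through the CD45-selected cells of MC38 tumours. The set holds 9 of the 32285 genes counted, listed by symbol with earlier results of these data known. They are the cytokine gene Ifng, the receptor genes Ifngr1 and Ifngr2 and the kinase genes Jak1 and Jak2, with the transcription factor genes Irf1 and Irf8, the feedback gene Socs1 and the enzyme gene Ido1. Ifng was read in lymphocytes, and the other genes also in myeloid and dendritic cells and in a group of cells with little Ptprc, the gene for CD45. MC38 is a mouse colon carcinoma line, here grown in female C57BL/6 mice and taken on day 14 from mice that had received LC427 or vehicle. The tumours were digested, dead cells were removed, CD45+ cells were collected on beads, and 1 library of 10x 5′ gene expression was made for each treatment. The labels do not say what LC427 is or how many mice went into a library, and their genotype entry repeats the treatment; the title of the series speaks of targeting LRBA and of CTLA4 degradation.

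Interferon gamma is a cytokine made mainly by activated T cells and NK cells. It binds a receptor of IFNGR1 and IFNGR2 chains, which carry the kinases JAK1 and JAK2. The signal passes from the kinases to GAS elements in the promoters of early genes such as Irf1. IRF1 and IRF8 then drive later genes for antigen processing, guanylate-binding proteins and chemokines, while SOCS1 blocks the kinases. In tumours the pathway is known both for raising antigen presentation and for inducing inhibitory genes, among them Ido1, whose enzyme degrades tryptophan to kynurenine.

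With 1 library per treatment no test between treatments was possible. Each comparison below is the ratio of LC427 to vehicle in CPM (the UMIs of a gene, scaled to a class total of 1000000 UMIs), with a 95% interval for counting error only; UMIs of the same cell are not independent, and the spread between animals was not measured. The libraries held 33711726 UMIs (vehicle) and 28732435 (LC427), of which 5025 and 6008 cells were kept, with median depths of 3494 and 2356 UMIs; 46 cell barcodes occurred in both. Classes were named from marker genes: CD8-like T cells (302 vehicle and 426 LC427 cells), CD4/Treg-like T cells (92 and 78), other T cells led by Cd7, Klra1 and Trdc (186 and 89), NK-like (359 and 152), monocyte/macrophage-like (3408 and 3973), conventional dendritic cell (DC)-like (162 and 321), mature regulatory DC-like (136 and 154), and a class of mixed T and myeloid markers (96 and 333). A class of 174 vehicle and 367 LC427 cells had a UMI of Ptprc in 5.73% of cells and was led by Sparc, Col3a1 and Tm4sf1. Only 1 of 8 carcinoma markers but 5 of 6 fibroblast markers occurred in at least 10% of these cells. Krt18, Krt19 and Cldn7 were at 0, and that 1 carcinoma marker was in 82.4% of cells. Such shares rise with depth, here a median of 21175.5 and 10952 UMIs. Fibroblast markers summed to 512 CPM in vehicle and 494 in LC427, against 18130.5 and 19243.8 in a fibroblast-like class (32 and 12 cells). The class is therefore called Ptprc-low here and neither tumour-like nor fibroblast-like. Levels are relative to all UMIs of a class, and fewer cells with an RNA and less of it per cell cannot be told apart from a level alone.

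**Figure D1:**
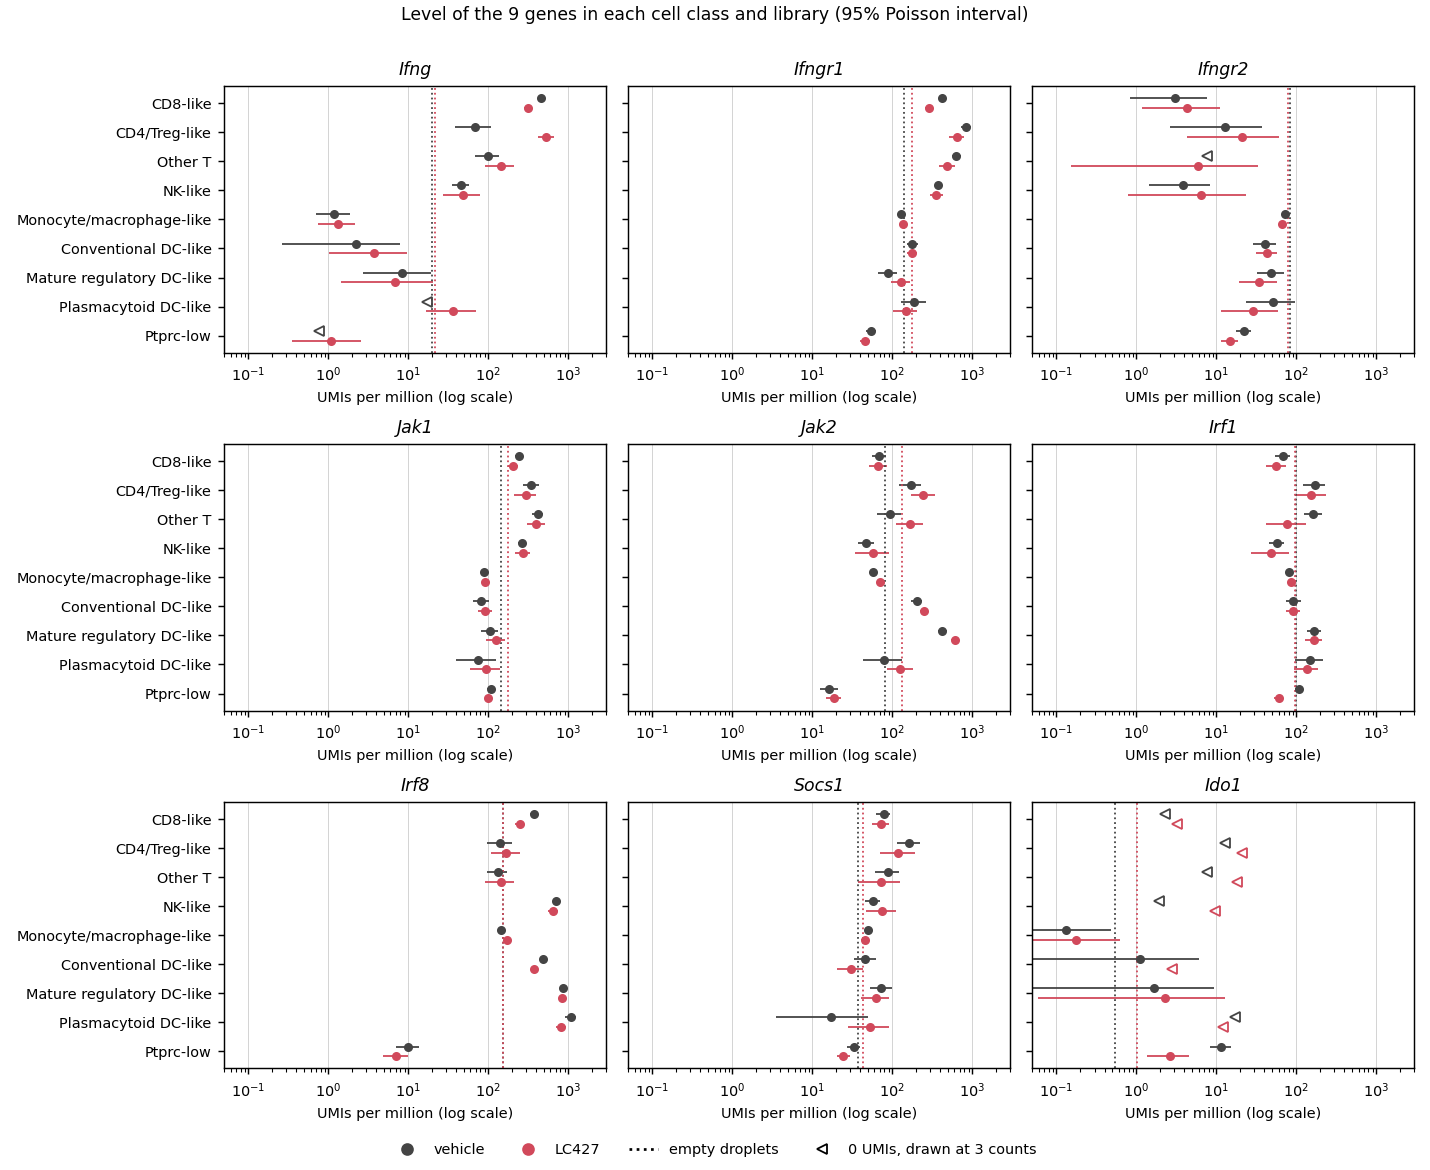
Level of each of the 9 genes (CPM, log axis) in 9 cell classes, vehicle in grey and LC427 in red, with 95% Poisson intervals for counting error and dotted lines for empty droplets; triangles mark 0 UMIs, drawn at 3 counts. Ifng lies above its empty-droplet level in the T and NK classes and, from 2 cells, in LC427 plasmacytoid DC-like cells; Ifngr2 has 0 to 6 UMIs in each lymphocyte class and library, and Ido1 has its highest level in the Ptprc-low class.

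Promoter windows of 250 bases before the start were available for 8 of the 9 genes from RefSeq (GRCm38.p6; 10 windows, since Irf1 and Irf8 have 2 each). They were searched on both strands for the GAS letters TTCNNNGAA and for a pair of half-sites of the kind bound by IRF proteins, GAAA, any 2 bases and GAAA. Shown are the windows of the induced and feedback genes Irf1 (chr11:53769764-53770013, + strand), Irf8 (chr8:120736108-120736357, + strand) and Socs1 (chr16:10785537-10785786, − strand), 5′ to 3′ toward the gene, with the matches in capitals.
Irf1: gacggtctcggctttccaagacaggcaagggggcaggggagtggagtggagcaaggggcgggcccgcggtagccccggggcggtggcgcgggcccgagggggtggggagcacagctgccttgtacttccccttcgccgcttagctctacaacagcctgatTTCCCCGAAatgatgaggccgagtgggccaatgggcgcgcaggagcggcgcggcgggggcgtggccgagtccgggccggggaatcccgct
Irf8: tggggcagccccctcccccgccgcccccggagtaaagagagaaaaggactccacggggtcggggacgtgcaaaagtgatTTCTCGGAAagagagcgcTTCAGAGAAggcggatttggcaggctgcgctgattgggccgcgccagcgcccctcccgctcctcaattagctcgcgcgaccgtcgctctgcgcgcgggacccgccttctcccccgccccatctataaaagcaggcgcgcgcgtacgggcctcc
Socs1: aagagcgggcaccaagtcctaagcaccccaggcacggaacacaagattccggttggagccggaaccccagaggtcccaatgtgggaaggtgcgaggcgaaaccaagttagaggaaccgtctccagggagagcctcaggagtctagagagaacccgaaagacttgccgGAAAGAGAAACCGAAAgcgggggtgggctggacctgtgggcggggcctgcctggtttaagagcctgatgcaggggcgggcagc
The Irf1 window holds a single GAS match, TTCCCCGAA, starting 90 bases before the gene. The Irf8 window holds TTCTCGGAA at 171 and TTCAGAGAA at 153 bases before it. The Ifng window (chr10:118440796-118441045, + strand) holds TTCAGAGAA at 249 bases. In Socs1 the 2 matches of the paired half-site, GAAAGAGAAA at 83 and GAAACCGAAA at 77 bases, overlap each other. GAS letters occur in 7.02% of all 32851 windows of this length (2306 windows) and the paired half-site in 2.98% (978 windows), so a match is a description of the letters and no sign of binding; the other windows held neither.

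Ifng (chr10:118441046-118445892, + strand, GRCm38), the cytokine gene, was read most often in CD8-like cells, and its level there was lower in the LC427 library. CD8-like cells gave 604 Ifng UMIs in vehicle and 292 in LC427, or 456 and 314 CPM. The ratio was 0.688 (0.597 to 0.793), and it lay between 0.571 and 0.708 under the alternatives of processing. A UMI of Ifng was found in 161 of 302 vehicle cells (53.3%) and 123 of 426 LC427 cells (28.9%), at median depths of 3412 and 1746 UMIs. After each cell was thinned to 1000 UMIs the shares were 26.2% and 18.5%. In macrophage-like cells, which do not make the cytokine in quantity, the shares were 0.352% and 0.327% before thinning (median depths 3618.5 and 2279 UMIs) and 0.0880% and 0.0755% after, and the CD8-like shares stood far above that background. Cells with more than 4 Ifng UMIs numbered 25 in vehicle and 9 in LC427, and the highest cell had 46 and 19.

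The CD8-like class joins non-cycling and cycling cells, and the Ifng ratio was the lower one in non-cycling cells. Non-cycling cells (181 and 265) had 581 CPM of Ifng in vehicle and 289 in LC427, a ratio of 0.497 (0.406 to 0.606). Cycling cells (121 and 161) had 361 and 344 CPM, a ratio of 0.952 (0.774 to 1.17). Without the 3 highest cells of each library, which held 113 of the 334 vehicle UMIs of non-cycling cells, the ratios were 0.61 (0.483 to 0.766) and 0.861 (0.672 to 1.1). The intervals then overlap, and the difference between the subsets was not tested. None of the 7 members with a ratio in CD8-like cells as a whole reached the 1.5-fold difference used as a call in either direction, against 24.9% of the 7808 genes measured there. In non-cycling cells 2 of 7, Ifng and Irf8, were called lower, against 12.7% of all genes lower and 30.5% in either direction. In cycling cells 1 of 7, Jak1, was called lower, against 13.7% lower and 28.8% in either direction.

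Outside CD8-like cells Ifng counts were small and single cells carried some of the differences. CD4/Treg-like cells had 16 UMIs in vehicle and 76 in LC427 (67.7 and 532 CPM), a ratio of 7.86 (4.54 to 14.4) that made Ifng the 1 called member of 7 in this class, where 33.3% of all measured genes passed the same fold and 18.1% were higher. A single LC427 cell held 64 of the 76 UMIs. Without the 3 cells of most Ifng UMIs in each library the ratio was 1.03, and the share of cells with a UMI was 12% (11 of 92) in vehicle and 10.3% (8 of 78) in LC427. That cell had 1839 UMIs in all, 2 of Cd3d and 1 of Cd3g, and none of Cd4, Foxp3, Cd8a, Ncr1, Klrb1c, Gzma or Gzmb. Its class had NK markers summed to 131 CPM in vehicle and 595 in LC427; their part in the result was not tested.

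Other T cells had 38 and 24 Ifng UMIs (98.0 and 143 CPM), a ratio of 1.46 (0.839 to 2.5), and again 1 LC427 cell held 14 of the 24. NK-like cells had 70 and 15 UMIs (45.2 and 48.6 CPM), a ratio of 1.08 (0.572 to 1.9). The NK class contains a cluster found mostly in vehicle (36 and 4 cells), and without it the levels were 70.3 and 50.4 CPM and the ratio 0.717 (0.38 to 1.27). All 3 intervals include equal levels, so no difference was detectable at this depth in these classes. Over all T and NK classes together the ratio was 1.26 (1.12 to 1.43), which includes the single high cell and the changed shares of the classes, and over all cells it was 0.804 (0.718 to 0.899). CD8-like cells held 77.5% of all Ifng UMIs in vehicle and 55.9% in LC427, while the mixed T and myeloid class held 3.21% and 15.1%. In the vehicle order of levels CD8-like cells stood above all other classes beyond counting error, and other T, CD4/Treg-like, NK-like and mixed cells followed with neighbours whose intervals overlap.

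Upstream of Ifng, 13 genes that induce it or act in its induction were read as a list. In CD8-like cells 1 of the 8 measured was called higher and 2 lower, against 13.7% and 11.1% of all genes. Tbx21, the gene of the Th1 factor T-bet, had 84.6 and 39.8 CPM, 0.47 (0.315 to 0.688), and Il12rb2, an interleukin-12 receptor chain, 69.5 and 30.1 CPM, 0.433 (0.273 to 0.668). Il12rb1, the other chain, had 28.0 and 43.1 CPM, 1.54 (0.96 to 2.48), an interval that includes 1. In NK-like cells Il18r1, an interleukin-18 receptor chain, was the 1 gene of 7 called, at 51.0 and 110 CPM, 2.16 (1.4 to 3.27), against 22.2% of all genes called higher and 15.9% lower. Without the vehicle-rich NK cluster 0 of these 7 were called higher and 2 lower (13.3% and 17.7% of all genes), so this call rests on that cluster. In macrophage-like cells 2 of 9 were called higher and 1 lower, against 11.1% and 6.57% of all genes. Il18rap had 3.89 and 7.18 CPM, 1.85 (1.31 to 2.63), and Il27 7.38 and 11.2 CPM, 1.52 (1.17 to 1.97). Il15 had 8.96 and 5.87 CPM, 0.655 (0.481 to 0.883). The T markers summed to 14.0 and 27.8 CPM in this class, and their part was not tested.

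Ifng in the remaining classes was at or below the free-RNA level, or rested on a single cell. Macrophage-like cells had 18 and 15 UMIs (1.19 and 1.31 CPM), conventional DC-like cells 2 and 4, and mature regulatory DC-like cells 5 and 3. Empty droplets, barcodes of 10 to 100 UMIs that carry free RNA, had 20.1 and 21.5 CPM. The Ptprc-low class had 0 UMIs in vehicle, where 3 counts would be 0.769 CPM, and 5 in LC427. Plasmacytoid DC-like cells (44 and 67) had 0 and 9 UMIs, of which a single LC427 cell held 8.

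**Figure D2:**
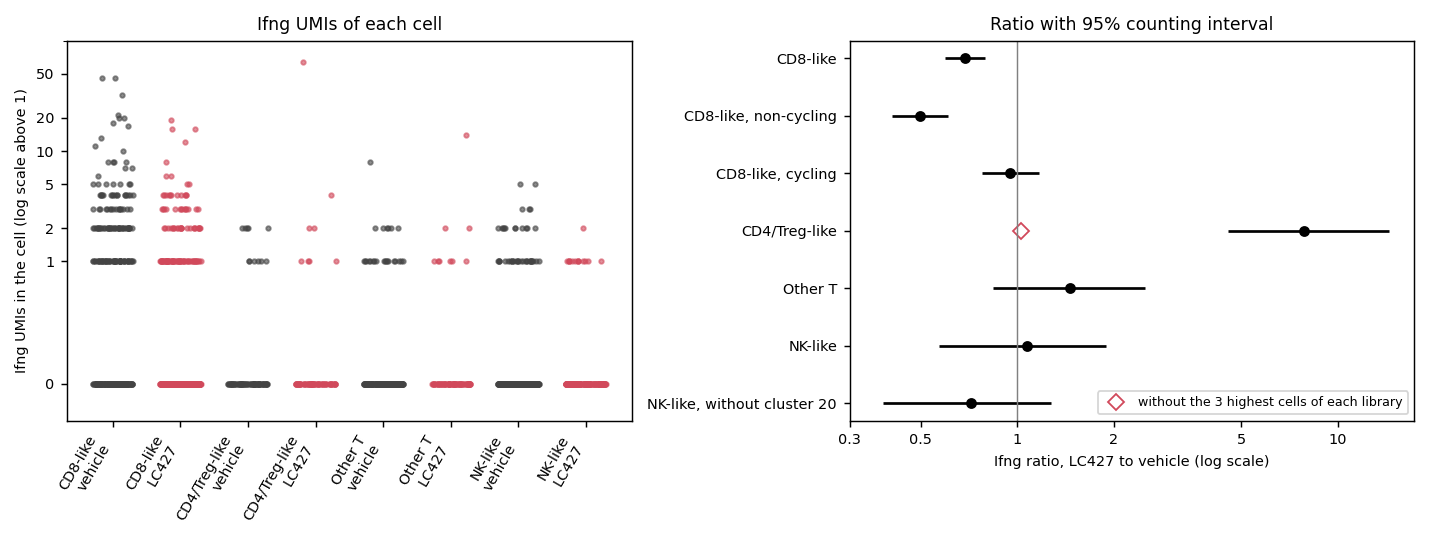
Left, Ifng UMIs in each cell of the 4 lymphocyte classes in the vehicle (grey) and LC427 (red) libraries; right, ratio of LC427 to vehicle (log axis) with 95% counting intervals, the open diamond leaving out the 3 highest cells per library. The ratio is 0.497 in non-cycling and 0.952 in cycling CD8-like cells, and the CD4/Treg-like ratio of 7.86 moves to 1.03 without its highest cells.

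Ifngr1 (chr10:19591949-19610229, + strand), the ligand-binding receptor chain, was highest in T and NK cells and lower in LC427 in 3 of these 4 classes, by less than 1.5-fold. In CD4/Treg-like cells it had 842 CPM in vehicle and 637 in LC427, a ratio of 0.757 (0.584 to 0.975). That class joins a Foxp3-led subset (43 and 60 cells; 957 and 781 CPM of Ifngr1) and a subset led by Lgals7 and Tnfsf8 (49 and 18 cells; 655 and 99.5 CPM, the latter from 3 UMIs), so its make-up differed between the libraries. In other T cells it had 635 and 483 CPM, a ratio of 0.762 (0.585 to 0.983). CD8-like cells had 416 and 287 CPM, a ratio of 0.691 (0.595 to 0.802), with 0.69 in non-cycling and 0.705 in cycling cells. Both CD8-like subsets thus had a lower Ifngr1 level in LC427. NK-like cells had 379 and 356 CPM, 0.94 (0.76 to 1.15), and without the vehicle-rich cluster 532 and 370 CPM, 0.696 (0.561 to 0.857). That cluster had 144 CPM of Ifngr1 in vehicle and so lowered the vehicle level of the whole class.

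In myeloid classes the Ifngr1 levels of the libraries lay close together. Macrophage-like cells had 129 and 135 CPM, a ratio of 1.04 (0.975 to 1.12), and conventional DC-like cells 178 and 178 CPM, a ratio of 1.0 (0.807 to 1.24). Mature regulatory DC-like cells had 88.4 and 129 CPM, 1.46 (0.985 to 2.17). The Ptprc-low class had the lowest level, 54.3 and 45.4 CPM, 0.836 (0.687 to 1.02). Empty droplets had 140 and 177 CPM, above the macrophage level in both libraries. In the vehicle order only CD8-like, NK-like and mixed cells had intervals that overlap their neighbour's.

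Ifngr2 (chr16:91547072-91565623, + strand), the second receptor chain, was nearly unread in lymphocytes. Each lymphocyte class had 0 to 6 UMIs per library, and in CD8-like cells 4 UMIs in each library lay in 1.32% and 0.704% of cells. Macrophage-like cells had 1092 and 752 UMIs (72.0 and 65.8 CPM), a ratio of 0.915 (0.833 to 1.005), in 25.9% and 16.5% of cells, or 7.45% and 6.80% after thinning. Conventional DC-like cells had 40.7 and 43.4 CPM, 1.07 (0.677 to 1.69), and mature regulatory DC-like cells 48.4 and 34.6 CPM, 0.715 (0.356 to 1.38). Ptprc-low cells had 22.0 and 14.8 CPM, 0.673 (0.483 to 0.936), the lowest level among the myeloid, dendritic and Ptprc-low classes. Empty droplets had 84.5 and 78.9 CPM of Ifngr2. No class, macrophage-like and DC-like cells included, had an Ifngr2 level above that of the empty droplets; in lymphocytes a level of their own was not detectable at this depth.

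Jak1 (chr4:101152367-101265282, − strand), the kinase carried by the IFNGR1 chain, differed little between the libraries. In other T cells it had 415 and 400 CPM, a ratio of 0.963 (0.713 to 1.29), and in CD4/Treg-like cells 343 and 294, 0.858 (0.577 to 1.26). CD8-like cells had 245 and 202 CPM, 0.826 (0.687 to 0.992). In the CD8-like class the cycling cells had the lower level, 262 and 171 CPM with a ratio of 0.651 (0.492 to 0.855), against 223 and 230 in non-cycling cells with 1.03 (0.796 to 1.34). Macrophage-like cells had 89.7 and 91.7 CPM, 1.02 (0.942 to 1.11), and Ptprc-low cells 108 and 99.8, 0.927 (0.81 to 1.06). The vehicle order of levels had all lymphocyte classes above the myeloid, dendritic and Ptprc-low ones. Empty droplets had 144 and 176 CPM of Jak1, a ratio of 1.22 (1.08 to 1.38), above the level of every myeloid, dendritic and Ptprc-low class named here, and the interval of LC427 CD8-like cells overlaps theirs. The gene overlaps Raver2 on the opposite strand, and no label or header says whether strand was used in counting.

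Jak2 (chr19:29251828-29313080, + strand), the kinase carried by the IFNGR2 chain, was highest in mature regulatory DC-like cells, a state marked by Ccr7, Fscn1 and Lamp3, and was higher there in LC427. These cells gave 253 UMIs in vehicle and 264 in LC427, or 422 and 608 CPM, a ratio of 1.44 (1.21 to 1.72). After thinning it was 1.21 (0.89 to 1.65), an interval that includes 1. The share of free RNA estimated in this class from T and NK markers was 46.2% in vehicle and 100% in LC427, so none was subtracted. Conventional DC-like cells had 202 and 251 CPM, 1.24 (1.02 to 1.5), and macrophage-like cells 56.9 and 69.8 CPM, 1.23 (1.11 to 1.35). In macrophage-like cells the ratio was 1.04 among cells with at least 2000 UMIs. Empty droplets had 80.7 and 133 CPM of Jak2, itself a ratio of 1.65 (1.42 to 1.93), and the T markers summed to 157 CPM in vehicle and 442 in LC427 mature regulatory DC-like cells, with 0 of 8 in at least 10% of cells; the part of either in the result was not tested. Other T cells had 36 and 28 Jak2 UMIs (92.9 and 167 CPM), 1.8 (1.06 to 3.03). CD8-like cells had 68.8 and 66.7 CPM, 0.97 (0.691 to 1.35), and Ptprc-low cells the lowest level, 16.4 and 18.6.

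No member of the 7 measured in mature regulatory DC-like cells and no member of the 7 in NK-like cells passed 1.5-fold, where 28.3% and 38.1% of all measured genes did. Without the vehicle-rich NK cluster 1 of the 7, Irf1, was called lower (85.2 and 50.4 CPM, 0.592, 0.317 to 1.04), with an interval that includes 1. Of all genes measured there 17.7% were called lower and 31% in either direction. The members' median log2 ratio without that cluster was −0.35 in place of 0.06. In other T cells Jak2 was called higher and Irf1 lower among 7 members, with 34.8% of all measured genes called. In conventional DC-like cells Socs1 alone of 7 was called, lower, with 23.7% of genes called and 8.25% lower. With both directions counted together, these counts lie below the shares over all genes.

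Irf1 (chr11:53770014-53778374, + strand), the early transcription factor gene whose promoter holds the GAS match shown above, was lower in LC427 in the Ptprc-low class. The class gave 420 UMIs in vehicle and 276 in LC427, or 108 and 60.3 CPM, a ratio of 0.56 (0.479 to 0.653). The ratio was 0.674 (0.545 to 0.832) in the first and 0.449 (0.355 to 0.567) in the second of the 2 clusters that make up the class. A UMI was found in 64.4% and 36.2% of cells at median depths of 21175.5 and 10952 UMIs. After thinning to 1000 UMIs the shares were 8.05% and 7.90% and only 14 and 29 UMIs remained, with a ratio of 0.982 (0.503 to 2.01), an interval that includes both 1 and the ratio from all UMIs. With every cell weighted equally the ratio was 0.615.

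Macrophage-like cells had 81.5 and 86.9 CPM of Irf1, a ratio of 1.07 (0.98 to 1.16). CD8-like cells had 67.3 and 56.0 CPM, 0.832 (0.579 to 1.18), and CD4/Treg-like cells 169 and 154 CPM, 0.91 (0.515 to 1.57). Mature regulatory DC-like cells had 168 and 166 CPM, 0.985 (0.718 to 1.35). In these classes equal levels lay within counting error. Other T cells had 63 and 13 Irf1 UMIs (162 and 77.6 CPM), a ratio of 0.477 (0.241 to 0.876). Empty droplets had 99.4 and 96.4 CPM.

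Irf8 (chr8:120736358-120756694, + strand), a transcription factor gene that DC development depends on, was highest in the dendritic and NK classes. Plasmacytoid DC-like cells had 1071 and 817 CPM, the highest level in vehicle, given with no ratio for their small number. Mature regulatory DC-like cells had 861 and 848 CPM, 0.985 (0.86 to 1.13), and NK-like cells 697 and 651 CPM, 0.934 (0.799 to 1.09). Without the vehicle-rich NK cluster the NK values were 822 and 645 CPM, 0.785 (0.667 to 0.92). Conventional DC-like cells had 488 and 376 CPM, 0.771 (0.672 to 0.884). The Ptprc-low class was lowest, with 39 and 32 UMIs. In vehicle the neighbours from mature regulatory DC-like through NK-like and conventional DC-like to CD8-like cells differed beyond counting error.

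In CD8-like cells Irf8 was lower in LC427, as was Ifng. These cells had 489 and 231 Irf8 UMIs, or 370 and 249 CPM, a ratio of 0.673 (0.573 to 0.788). It was 478 and 271 CPM in non-cycling cells, 0.565 (0.456 to 0.698), and 286 and 224 CPM in cycling cells, 0.782 (0.609 to 0.999). The share of CD8-like cells with a UMI was 57.6% and 33.8%, or 29.8% and 17.8% after thinning; in the Ptprc-low class, at median depths of 21175.5 and 10952 UMIs, it was 16.1% and 7.36%, or 0.575% and 0% after thinning. Empty droplets had 153 and 152 CPM. Of the 7 members with a ratio in CD8-like cells, Ifng, Ifngr1, Jak1 and Irf8 had intervals wholly below 1, and the median log2 ratio was −0.28 against 0.06 for all genes measured there.

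Socs1 (chr16:10782240-10785536, − strand), the feedback inhibitor of the kinases, had its highest level in CD4/Treg-like cells. It had 161 and 119 CPM there, a ratio of 0.741 (0.392 to 1.34), and 77.8 and 72.1 CPM in CD8-like cells, 0.926 (0.671 to 1.27). Macrophage-like cells had 49.9 and 45.0 CPM, 0.902 (0.805 to 1.01). Conventional DC-like cells had 42 and 32 UMIs (46.1 and 30.2 CPM), 0.654 (0.399 to 1.06), and Ptprc-low cells 32.8 and 24.5 CPM, 0.745 (0.573 to 0.968). Across the order of classes, neighbouring Socs1 levels, and likewise neighbouring Irf1 levels, had overlapping intervals. Empty droplets had 36.8 and 42.7 CPM of Socs1.

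The macrophage-like class is the largest, and its 8 clusters of at least 50 cells per library are given beside it. In these clusters 0 to 3 of 7 members passed 1.5-fold in either direction. Of all measured genes 20.1% (cluster 5) to 29.5% (cluster 14) did so. None of the 8 members measured in the class passed 1.5-fold, against 17.7% of 11545 genes, and their median log2 ratio was 0.08 against 0.13 for all genes. In macrophage cluster 14, led by Rsad2, Ifit2 and Cmpk2 (79 and 123 cells), Irf1 had 67.4 and 144 CPM, 2.13 (1.3 to 3.58), Jak2 64.7 and 105, 1.62 (0.948 to 2.83), and Irf8 111 and 174, 1.57 (1.05 to 2.39). These 3 of 7 members were called higher there, where 18.8% of all genes were called higher. Under the alternatives the Jak2 ratio of this cluster ran from 0.771 (after thinning) to 1.84, so its direction is not settled, while Irf1 ran from 1.53 to 2.32 and Irf8 from 1.38 to 1.73. In cluster 7, led by Chil3, Thbs1 and Plac8 (165 and 343 cells), Irf8 had 165 and 313 CPM, 1.9 (1.44 to 2.54), and Ifngr2 49.3 and 88.0, 1.79 (1.06 to 3.13), while Ifngr1 had 281 and 208, 0.74 (0.575 to 0.955). The Irf8 ratio of cluster 7 ran from 1.19 (with the members kept in the clustering) to 2.49 under the alternatives. The Ifngr2 ratio of cluster 7 was 0.859 after thinning, so its direction is not settled; 15.8% of genes were called higher in that cluster.

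Socs1 was lower in LC427 in 4 of these macrophage clusters. It had 44.8 and 24.0 CPM in cluster 2 (led by Pf4, Mmp12 and Arg1), a ratio of 0.535 (0.356 to 0.783), and 29.2 and 15.7 CPM in cluster 3, 0.537 (0.292 to 0.951). It had 59.7 and 38.3 CPM in cluster 5, 0.641 (0.47 to 0.865), and 131 and 91.3 CPM in cluster 4, led by Nos2, Ly6i and Acod1, 0.695 (0.535 to 0.9). In cluster 0, which held 396 vehicle and 1130 LC427 cells, it had 40.7 and 49.7 CPM, 1.22 (0.923 to 1.63). Under the alternatives the Socs1 ratio lay between 0.199 and 0.671 in cluster 2, 0.603 and 0.89 in cluster 3, 0.517 and 0.653 in cluster 5, and 0.434 and 0.754 in cluster 4, below 1 throughout. The class ratio of 0.902 thus joins clusters of unlike ratio and of unlike share in the libraries. Irf1 was lower in cluster 2 (74.1 and 54.5 CPM, 0.735, 0.561 to 0.954), and Jak2 in cluster 1 (40.0 and 28.8 CPM, 0.72, 0.516 to 0.991).

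**Figure D3:**
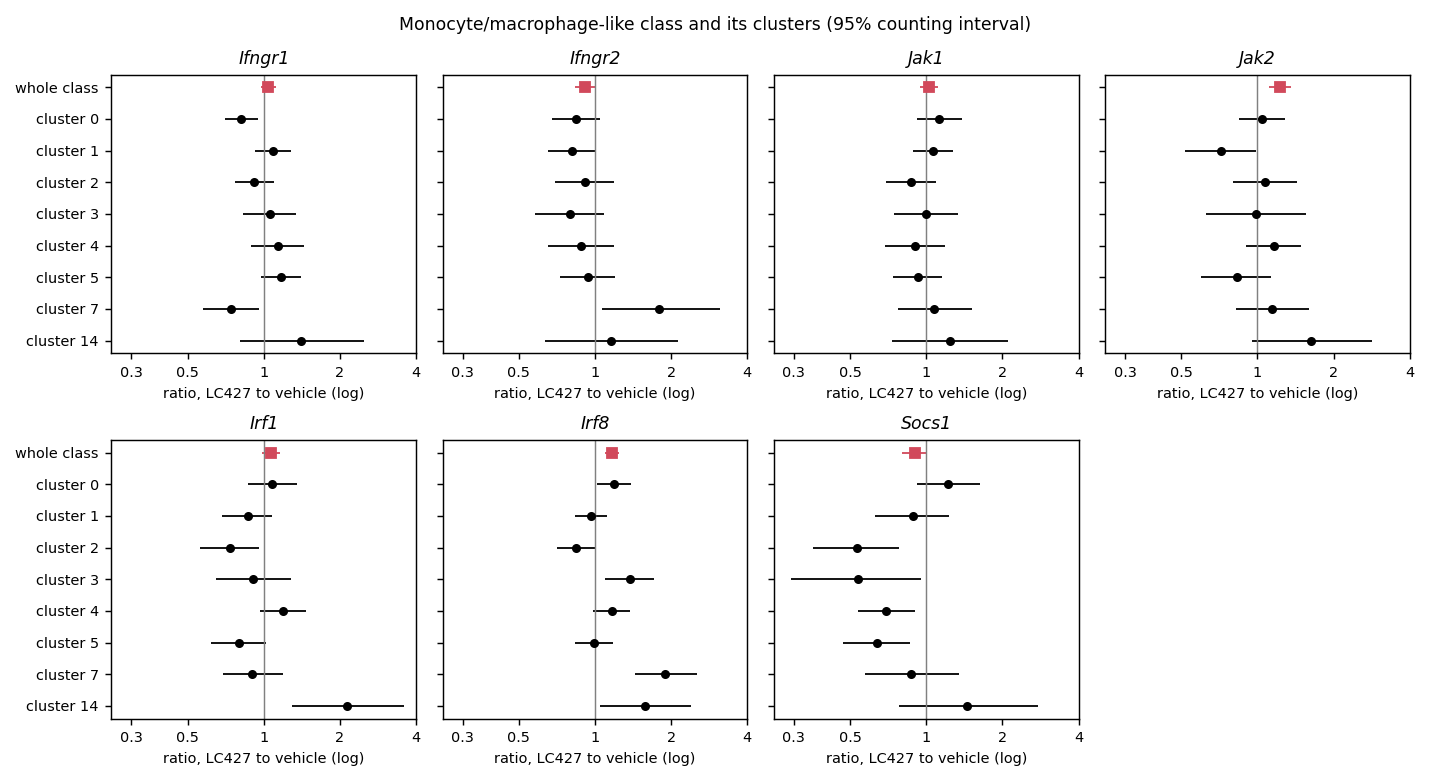
Ratio of LC427 to vehicle (log axis) of 7 members in the macrophage-like class and in 8 of its clusters, with 95% counting intervals. Irf1 in cluster 14 (2.13) and Irf8 in cluster 7 (1.9; 1.19 to 2.49 under the alternatives) lie above 1, and Socs1 in clusters 2, 3, 4 and 5 lies below it.

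Ido1 (chr8:24584136-24597009, − strand), the tryptophan-degrading enzyme gene, was read almost only in the Ptprc-low class and was lower there in LC427. The class gave 45 of the 49 Ido1 UMIs of the vehicle library and 12 of the 16 of the LC427 library, or 11.5 and 2.62 CPM, a ratio of 0.227 (0.109 to 0.437). A UMI was found in 24 of 174 vehicle cells (13.8%) and 11 of 367 LC427 cells (3.0%), and no cell had more than 7. After thinning 2 and 0 cells remained, which allows no reading. In the second cluster of the class the counts were 32 and 9, a ratio of 0.242 (0.101 to 0.518), and in the first 13 and 3. All 4 lymphocyte classes had 0 UMIs of Ido1, where 3 counts would be 1.94 CPM in vehicle NK-like cells and 21.0 CPM in LC427 CD4/Treg-like cells, the lowest and highest of these limits. Macrophage-like cells had 2 and 2 UMIs in 0.0587% and 0.0503% of cells, conventional DC-like cells 1 and 0, and mature regulatory DC-like cells 1 and 1. With Irf1, Ido1 made 2 of 8 members called in the Ptprc-low class, both lower, where 10.3% of 10918 genes were called lower and 18.7% in either direction.

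Genes that interferon gamma is known to induce were read in the same classes as a list of 33, put together with earlier results of these data known. In macrophage-like cells 9 of 33 were at least 1.5-fold higher and 0 lower, against 11.1% higher and 6.57% lower of all genes, and the median log2 ratio was 0.36 against 0.13. Gbp4, a guanylate-binding protein gene, had 33.1 and 58.9 CPM, 1.78 (1.58 to 2). Wars, a tryptophan tRNA ligase gene, had 36.8 and 65.8 CPM, 1.79 (1.6 to 2), and Ciita, the activator of MHC class II genes, 22.5 and 39.7 CPM, 1.76 (1.53 to 2.04). The GTPase gene Ifi47 had 59.5 and 100.4 CPM, 1.69 (1.55 to 1.84). Tgtp1 had 28 and 56 UMIs (1.85 and 4.90 CPM), 2.66 (1.66 to 4.34). All of these were among the 9 called. The chemokine gene Cxcl10 had 278 and 289 CPM, 1.04, while B2m, the MHC class I light chain gene, had 2336 and 1781 CPM, 0.762. In single macrophage clusters the list's median lay between −0.27 (cluster 2) and 0.29 (cluster 0), so the class median is above that of every such cluster. It was below the median of all measured genes in clusters 2, 3, 4 and 14. The pairs there were −0.27 against 0.08, 0.09 against 0.24, −0.01 against 0.15 and 0.09 against 0.11. In clusters 0, 1, 5 and 7 it was above, at 0.29 against 0.19, 0.23 against 0.12, 0.24 against 0.08 and 0.24 against 0.04. The T markers summed to 14.0 CPM in vehicle and 27.8 in LC427 macrophage-like cells, and their part in the result was not tested. Of a separate list of 15 signalling genes 1, Nmi, was called higher (27.7 and 47.3 CPM, 1.7, 1.5 to 1.94) and 0 lower.

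In the Ptprc-low class the same list lay the other way. Of 29 targets measured there, 0 were called higher and 17 lower, and the median log2 ratio was −0.79 against 0.02 for all genes, of which 10.3% were called lower. Psmb8, an immunoproteasome subunit gene, had 328 and 134 CPM, 0.407 (0.369 to 0.448). Cxcl10 had 160 and 72.1 CPM, 0.45 (0.393 to 0.516), and H2-D1, an MHC class I heavy chain gene, 1525 and 904 CPM, 0.593 (0.57 to 0.617). Wars had 61.5 and 58.5 CPM, 0.951 (0.796 to 1.14), and so was not among the lower genes. Of 15 signalling genes 4 were called lower and 2 higher, against 10.3% and 8.41% of all genes. The monocyte/macrophage markers summed to 320 CPM in vehicle and 162 in LC427 cells of this class, with 4 of 15 in at least 10% of cells and single markers in 1.66% to 21.3% of cells. Among cells with no UMI of Ptprc, Lyz2 or the C1q genes (102 and 262), 15 of 29 targets were called lower and 0 higher, with ratios of 0.616 for Irf1 and 0.257 for Ido1. Over all alternatives 13 to 23 targets were called lower and 0 higher, and the first and second cluster of the class gave 14 and 23.

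**Figure D4:**
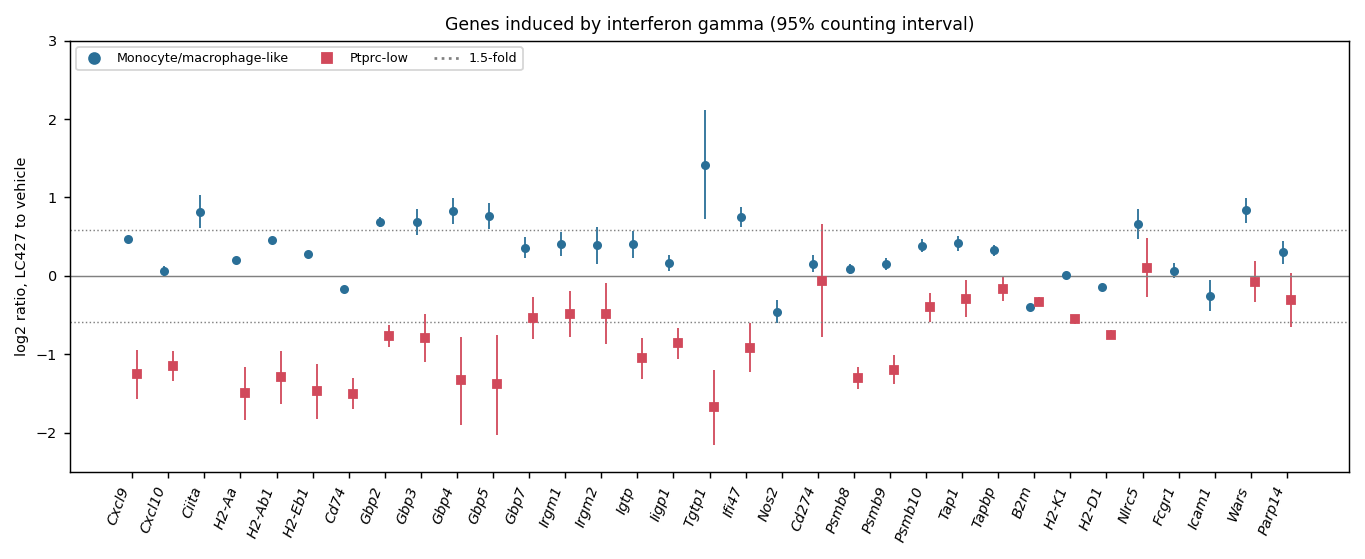
Log2 ratio of LC427 to vehicle of the interferon gamma target genes in macrophage-like cells (blue) and Ptprc-low cells (red), with dotted lines at 1.5-fold. The medians are 0.36 and −0.79, and no target lies above the upper line in Ptprc-low cells or below the lower line in macrophage-like cells.

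By their medians the other classes lay between these 2. Conventional DC-like cells had 11 of 33 targets called higher and 2 lower, against 15.4% and 8.25% of all genes (median 0.27 against 0.08). Mature regulatory DC-like cells had 6 higher and 2 lower of 29, against 17% and 11.3% of all genes, with a median of −0.02 against 0.07. CD8-like cells had 4 higher and 3 lower of 29, near the shares over all genes (13.7% and 11.1%), with a median of 0.09. NK-like cells had 8 higher and 3 lower of 27 (22.2% and 15.9% of all genes), but 2 higher and 6 lower without the vehicle-rich cluster, so the NK count follows that cluster. None of these differences between classes was tested.

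The genes most like each member in level over 18 points (9 classes in each library) were found by Pearson correlation of log2(CPM + 10) among 5677 genes, a description over points that share libraries and depth. Ifng was closest to Il18rap (0.95), a chain of the interleukin-18 receptor, and Ifngr1 to Cd69 (0.98), an early activation marker. Ifngr2 was closest to the cathepsin gene Ctsz (0.98), Jak1 to Gimap1os (0.97) and Jak2 to the adaptor gene Dapp1 (0.96). Irf1 was closest to Nfkbia (0.87), an inhibitor of NF-κB, Irf8 to Tmsb4x (0.92), Socs1 to Tnfrsf1b (0.93), a TNF receptor gene, and Ido1 to Apol9a (0.92). No member was among the 3 genes closest to another member.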

How the data were processed

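Gene counts were deposited by the authors as unfiltered UMI count matrices (10x 5′ chemistry version 2), made with Cell Ranger against GRCm38 (mm10), per the submitters' processing notes and the file headers; the notes give version 3.0.1 with Seurat 3, the headers another. The authors' deposited cluster tables hold mean counts per cell (a signal), log2 fold changes and p-values, and only the means were used. Barcodes with at least 1000 UMIs, 400 genes and at most 10% mitochondrial UMIs were cells. The automatic Scrublet call marked 3 and 0 barcodes and was taken as not having worked; the highest scores (220 and 320) were left out, at 0.8% per 1000 cells. Both libraries were clustered together without integration (scanpy 1.11.5, leidenalg 0.10.2, 2000 variable genes without the members, 30 components, 20 neighbours, resolution 1), and T-like clusters again. Clusters were named from 18 marker lists; the naming thresholds, the 7 added alternatives and the choice of main values were set after results had been seen. UMIs were summed per class. A ratio needed 50 cells per library and 20 UMIs; intervals are exact (95%, scipy 1.17.1), the floor is 3 counts and a call is 1.5-fold. Thinning drew 1000 UMIs per cell. Positions are from GENCODE vM21. Members and lists were chosen with earlier results of these data known. All members were named, and from each list up to 4 genes per direction with at least 50 UMIs in macrophage-like cells (the induction list also in CD8-like and NK-like cells); the others named were chosen after their values were seen. The ratio script was tested on simulated data. Alternatives changed the cell filters, doublets, clustering, gating, thinning, scaling, free-RNA subtraction and fold.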

Additional observations from a re-analysis of the deposited data

Results flagged for a closer look

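The Ifng ratio of LC427 to vehicle was 7.86 in CD4/Treg-like cells and 0.688 in CD8-like cells, opposite sides of 1; the difference was not tested, and 64 of the 76 LC427 UMIs of the CD4/Treg-like class lay in 1 cell. The 15 signalling genes had a median log2 ratio of 0.29 in NK-like cells and −0.19 in other T cells; the difference was not tested, and the NK-like median was 0.09 without the vehicle-rich cluster (36 and 4 cells). The interferon gamma targets had a median log2 ratio of 0.36 in macrophage-like cells and −0.79 in Ptprc-low cells. The difference was not tested, and single macrophage clusters had medians from −0.27 (cluster 2) to 0.29 (cluster 0), all below 0.36. The interferon regulatory factor genes had a median log2 ratio of 0.33 in mature regulatory DC-like cells and −0.47 in Ptprc-low cells; the difference was not tested.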

How the results depend on the processing

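No paired analysis was possible because each treatment had 1 library; for the same reason no library could be left out. Only some comparisons were set as main values. They were the ratios of Ifng in CD8-like, CD4/Treg-like and NK-like cells and of Irf8 in CD8-like cells. Jak2 in mature regulatory DC-like cells and Irf1 and Ido1 in Ptprc-low cells were also among them. The last were the counts of targets called higher and lower in macrophage-like and Ptprc-low cells. For these main values, 148 recomputed values stayed, 16 moved and 1 changed direction. Staying meant within the counting interval of the ratio, or within 1.5 times for counts of genes. A change of direction was counted only where the main interval excluded 1. Of all other recomputed values, list medians included, 1240 were counted as staying, 107 as moved and 3 as changed in direction. The Ifng ratio in CD8-like cells was 0.574 in cells gated by their own markers and 0.571 after thinning to 1000 UMIs; that of Irf8 there was 0.797 and 0.536. The Ifng ratio in CD4/Treg-like cells changed direction to 0.888 in gated cells, was 2.03 with a minimum of 500 UMIs per cell and 1.03 without the 3 highest cells per library. In NK-like cells, where the main interval includes 1, it was 2.44 at 2000 UMIs. It fell below 1 there in other settings, to 0.759 after thinning and 0.664 with every cell weighted equally. The Jak2 ratio in mature regulatory DC-like cells was 1.21 after thinning. The Irf1 ratio in Ptprc-low cells was 0.982 after thinning, 0.674 in the first and 0.449 in the second cluster. The targets called lower in macrophage-like cells numbered 1 at 2000 UMIs, 1 in gated cells, 1 with ratios divided by the median over all genes and 2 at a lower fold threshold; 18 were called higher at that threshold and 6 with divided ratios. In the mixed class the Jak2 ratio was 1.02 with all barcodes kept and 1.07 after thinning, on the other side of 1 from 0.728, and that of Ifngr2 in macrophage cluster 7 was 0.859 after thinning. The cause of these changes was not tested.

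No value came from 2000 UMIs or separate clustering for CD4/Treg-like cells, from free-RNA subtraction in mature regulatory DC-like and mixed cells, from gating of DC and Ptprc-low cells, or from thinning for Ido1. Macrophage clusters were not matched under separate clustering, gating, dividing or subtraction. Few UMIs limit what can be read of Ido1, of Ifngr2 in lymphocytes and of Ifng outside CD8-like cells.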

Other observations

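Genes of the families around the members were counted in the same classes. Of 8 interferon regulatory factor genes measured in macrophage-like cells 0 were called higher and 1, Irf4, lower (ratio 0.62), against 11.1% and 6.57% of all genes. In mature regulatory DC-like cells 4 of 8 were called higher and 0 lower, against 17% and 11.3% of all genes; the T markers summed to 157 CPM in vehicle and 442 in LC427 cells of this class, and their part in the result was not tested. Of the kynurenine pathway genes downstream of Ido1, 6 were measured in macrophage-like cells, where Ido1 itself had 2 UMIs in each library: Kynu (1.86), Kmo (1.77) and Haao (1.73) were called higher and Afmid (0.61) lower. The related receptor genes Ifnar2 (0.78) and Il10rb (0.77) had ratios below 1 in macrophage-like cells without being called, and were called lower in Ptprc-low cells (0.66 and 0.41). They were the 2 called of 5 related receptor and kinase genes in Ptprc-low cells, where 10.3% of all genes were called lower.

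In the authors' deposited table of mean counts per cell in their 13 vehicle clusters, Ifng was highest in the cluster that was also highest in Cd8a (0.858 and 1.12), and in that of their 11 LC427 clusters likewise (0.463 and 0.863). A second LC427 cluster in the authors' deposited table, the one highest in Ncr1 (0.0691), lay close behind with 0.449 of Ifng. This cluster was also highest in Foxp3 (0.0662) and next highest in Cd8a (0.587) in the authors' deposited table, so it mixes T and NK markers. In the authors' deposited table Jak2 and Irf8 were highest in the vehicle cluster highest in Ccr7 (1.06 and 2.49, with Ccr7 at 5.46) and in the LC427 cluster highest in Ccr7 (0.859 and 1.49, with Ccr7 at 2.43). In the authors' deposited table these clusters were also highest in Siglech (0.242 and 0.368), a plasmacytoid DC marker. Unlike the classes above, Ido1 (0.00623) and Ifngr1 (0.853) were highest in the LC427 cluster highest in Csf1r (1.86), a macrophage marker, in the authors' deposited table. Ido1 means were very low there, and the next LC427 cluster had 0.00468, so this order rests on few UMIs. Among the vehicle clusters of the authors' deposited table Ido1 was highest at 0.0280, against 0.00875 in the next, the one highest in Ccr7. Ifngr1 had 0.851 in the LC427 cluster next highest in it, and in vehicle it was highest (2.37) in the cluster highest in Ncr1 (0.237). That vehicle cluster was also next highest in Cd8a (0.454) and Foxp3 (0.0559) in the authors' deposited table. Another vehicle cluster of the authors' deposited table had nearly the same Ncr1 (0.236) and 1.16 of Ifngr1.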
